A study of Oryza sativa with 16 samples.

Results

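The drought response of the flag leaf of DTY-IL rice was examined in 8 libraries of a set of 16. DTY-IL is an introgression line that carries fragments of the donor N22 in the background of the drought-susceptible indica variety Swarna, and it was represented by a single line. The libraries were chosen by their genotype and treatment labels, 4 from plants under reproductive-stage drought stress (RDS) and 4 from well-watered control plants of the same line. Plants grew singly in pots in a greenhouse. Under RDS the soil was held at 75% of field capacity for 9 days and then at 50% for 3 days, beginning at the R2 stage, and flag leaves of both treatments were taken at the R3 stage on day 12. The remaining 8 libraries came from Swarna under the same treatments, 4 under RDS and 4 under control. They are used below for comparison and also entered the fitted model.

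The flag leaf is the last leaf below the panicle and a main source of assimilate for the filling grain. Plants that lose water close their stomata, and the hormone abscisic acid rises and acts through receptors, phosphatases and kinases on transcription factors of families such as NAC, AP2/ERF and bZIP. Their targets include protective proteins, enzymes that make compatible solutes and enzymes that remove reactive oxygen, while genes for photosynthesis and growth are commonly repressed. Class III peroxidases are secreted enzymes that can stiffen or loosen the cell wall. CBL-interacting kinases act with calcium sensors.

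Transcript levels were measured by paired-end RNA-seq as estimated counts per locus. The loci carry Rice Genome Annotation Project identifiers, for which the files used here give no gene names. Of these identifiers, 0 were found among the reference genes. Function is therefore given only for the 8 loci that the main text of the study names with one. The longer gene lists in its supplement were not used here, and the labelled tissue was not checked against marker genes here. DTY-IL libraries held 14250527 to 17325329 counts under RDS and 15140254 to 19367077 under control. Of 55801 loci, 28283 had at least 10 counts in total over the 16 libraries and were tested, and 26129 of these had at least 10 counts in the DTY-IL libraries. CPM below are counts scaled to a common library size with factors from the trimmed mean of M-values (TMM). CPM is not corrected for transcript length, so that classes and rankings of loci by CPM reflect transcript length as well as level. Flag leaves were taken whole, so fewer cells of a type and less RNA per cell cannot be told apart.

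RDS changed loci in both directions in about equal number. In edgeR's quasi-likelihood test, 3389 loci (12.0% of those tested) rose and 3252 loci (11.5%) fell in DTY-IL drought libraries relative to DTY-IL control libraries, 23.5% in all. Loci were called at 2-fold change or more with a p of 0.05 or less after Benjamini-Hochberg adjustment. With the adjusted p alone, 11412 loci (40.3%) passed, 5993 higher and 5419 lower under drought. The median log2 fold change was 1.97 among loci that rose and −1.97 among loci that fell, against 0.03 over all tested loci. At 4-fold or more, 1667 loci rose and 1585 fell. At 16-fold or more, 474 rose and 445 fell, and at 64-fold or more 156 rose and 107 fell. With library size as the only scaling, the median of all tested loci shifted to 0.43 and the called loci split into 5801 that rose and 2152 that fell, so the even split holds relative to TMM scaling.

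The libraries of the treatments were separated at most called loci. The 4 drought libraries lay entirely above or entirely below the 4 control libraries at 5599 of the 6641 called loci, 2877 that rose and 2722 that fell. Over all tested loci, 35.0% showed such separation, with drought higher at 18.6% and lower at 16.4%. Of the called loci, 4919 (74.1%) were called in each of the 8 fits that left out a single DTY-IL library, and 0 calls changed direction in any of those fits. The loci were called on these same libraries, so that their separation and kept direction largely follow from the call. For 10046 tested loci (35.5%), the 95% interval of the limma-voom fold change lay within 2-fold in either direction, and 7078 of these were among the 11319 loci with a mean of at least 10 CPM.

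The share of counts held by called loci differed between the treatments. Loci that rose held 18.4%, 13.5%, 15.2% and 19.3% of all counts in DTY-IL drought libraries 1 to 4, and 2.94%, 2.93%, 3.34% and 3.32% in DTY-IL control libraries 1 to 4. Loci that fell held 13.8%, 15.6%, 11.9% and 12.4% of counts in the drought libraries, and 39.3%, 41.3%, 39.9% and 38.7% in the control libraries. These shares describe loci chosen on the same contrast and carry no test. A measure that did not use the calls also differed. The smallest number of loci that together held 50% of the counts was 723, 857, 813 and 845 in the drought libraries and 300, 314, 402 and 371 in the control libraries. Every drought library spread its counts over more loci than any control library.

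**Figure D1:**
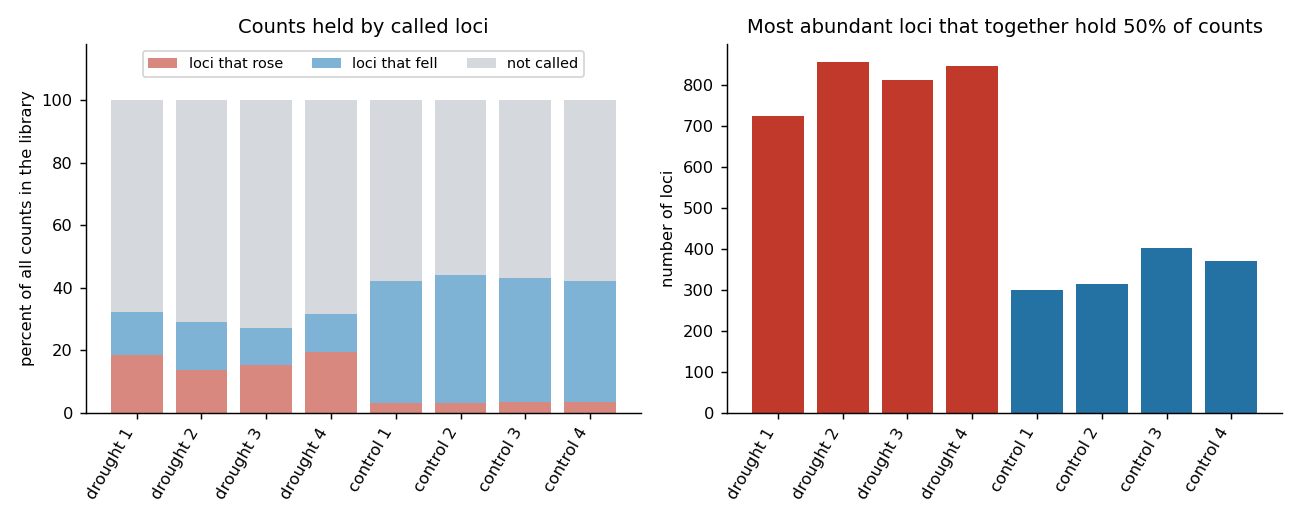
Left, percent of all counts (y axis) held in each DTY-IL library (x axis) by loci that rose under drought, fell under drought or were not called, stacked to 100. Right, number of the most abundant loci that together hold 50% of the counts in each library, 723 to 857 in drought libraries and 300 to 402 in control libraries.

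The direction of change differed with the share of counts that a locus took. Tested loci were grouped by their mean CPM over the DTY-IL libraries. Of 103 loci at 1000 CPM or more, 9 rose (8.74%) and 44 fell (42.7%). Of 1488 loci between 100 and 1000 CPM, 155 rose (10.4%) and 362 fell (24.3%). Between 10 and 100 CPM the numbers were nearly even, with 862 that rose and 940 that fell of 9728 loci. Between 1 and 10 CPM more loci rose, 1425 against 1017 that fell, of 7698. Between 0.1 and 1 CPM, 850 rose and 762 fell of 6210. Below 0.1 CPM few of the 3056 loci were called, 88 that rose (2.88%) and 127 that fell (4.16%). Among the 100 loci with the highest mean CPM in DTY-IL control libraries, 1 rose and 54 fell. Among the 100 highest in DTY-IL drought libraries, 20 rose and 26 fell. These 2 lists use the levels that enter the contrast and are given as a description.

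**Figure D2:**
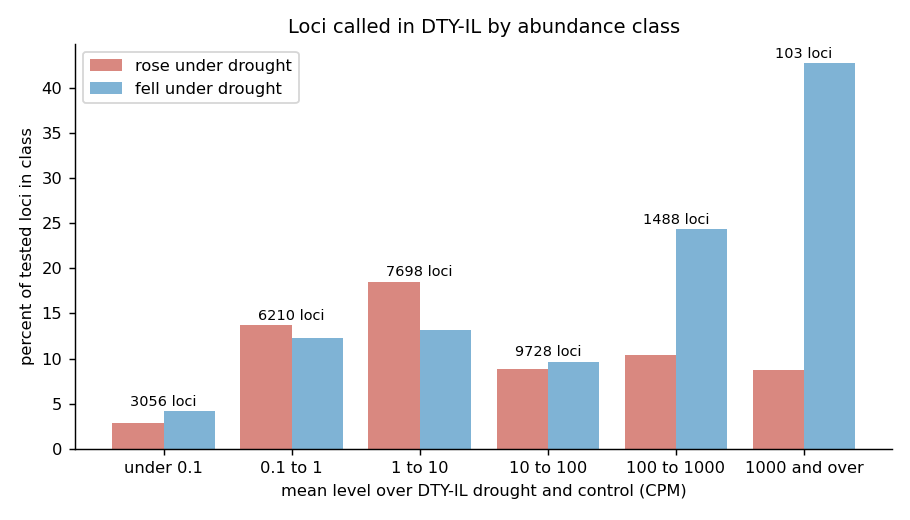
Percent of tested loci that rose or fell under drought in DTY-IL (y axis) by class of mean level in CPM (x axis), with the number of loci per class above the bars. The share that fell is highest, 42.7%, in the class of 1000 CPM and over.

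The 2 loci with the largest gain in mean CPM among calls without overlap are named here by identifier. LOC_Os01g01340 stood at 8448, 5662, 4061 and 6427 CPM in DTY-IL drought libraries 1 to 4, and at 725, 915, 918 and 1072 CPM in DTY-IL control libraries 1 to 4. The lowest drought library was above every control library. Its mean was 6149 ± 1822 CPM under drought and 908 ± 142 CPM under control (SD, n = 4 each), and its log2 fold change was 2.76 ± 0.36 (SE, adjusted p = 8.38e-06, edgeR quasi-likelihood test).

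LOC_Os07g34570 stood at 5824, 4951, 4890 and 5683 CPM in the drought libraries and at 836, 544, 721 and 744 CPM in the control libraries. The drought libraries were close to each other, with a mean of 5337 ± 485 CPM, against 711 ± 122 CPM in control libraries (SD, n = 4 each). The log2 fold change was 2.91 ± 0.21 (SE, edgeR adjusted p = 1.04e-08).

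The 2 loci with the largest loss in mean CPM are given in the same way. LOC_Os11g47970 stood at 1283, 1610, 1231 and 1673 CPM in drought libraries and at 35372, 39506, 37971 and 30378 CPM in control libraries. It held 0.140% to 0.190% of the counts of a drought library, against 2.70% to 3.44% of a control library. Its log2 fold change was −4.63 ± 0.28 (SE, edgeR adjusted p = 1.53e-09), a fall of 24.7-fold.

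LOC_Os12g17600 stood at 2893, 3421, 1508 and 2070 CPM in drought libraries and at 20765, 21698, 13803 and 28948 CPM in control libraries. The control libraries varied among themselves, with a mean of 21304 ± 6195 CPM, against 2473 ± 850 CPM in drought libraries (SD, n = 4 each). All 4 control libraries were nonetheless above all 4 drought libraries, and the log2 fold change was −3.11 ± 0.42 (SE, edgeR adjusted p = 1.15e-05). These 4 loci were chosen by the size of their change in the same libraries.

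The 8 loci whose function the main text of the study gives were picked by it with these samples in view, so their changes are not independent evidence of a function. Of the 7 that could be tested, 2 rose, 1 fell and 4 did not pass the threshold, against 23.5% of all tested loci called. They are given in the order of transcription factors, the auxin-responsive protein, signalling proteins and secreted peroxidases.

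LOC_Os01g66120 encodes a no apical meristem (NAM) protein, a member of the NAC transcription factors. It stood at 369, 180, 345 and 588 CPM in drought libraries and at 153, 183, 204 and 132 CPM in control libraries. Drought library 2 was within the range of the control libraries, and the other 3 drought libraries were above it. The log2 fold change was 1.14 ± 0.30 (SE, edgeR adjusted p = 0.00606). Without drought library 4 it was 0.83, below the 2-fold threshold, with an adjusted p of 0.0333 in the same edgeR test. The glmTreat test against a change of 2-fold did not call it (adjusted p = 0.521).

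LOC_Os07g22770, which encodes an AP2 domain-containing protein annotated with a role in floral organ identity, was barely read in the flag leaf. It had 5, 6, 3 and 2 counts in drought libraries and 3, 1, 2 and 2 counts in control libraries, and the ranges overlapped. Its log2 fold change of 0.70 ± 0.76 did not pass the test (SE, edgeR adjusted p = 0.490), and a difference was not detectable at this depth. LOC_Os01g67030, annotated as an auxin-responsive protein, had a single count over all 16 libraries, in DTY-IL drought library 1, and was not tested.

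LOC_Os01g66820, annotated as the precursor of an inactive receptor kinase, fell. It had 5, 5, 2 and 1 counts in drought libraries and 12, 17, 34 and 12 counts in control libraries. The groups did not overlap, at 0.181 ± 0.122 CPM under drought and 1.20 ± 0.510 CPM under control (SD, n = 4 each). The log2 fold change was −2.70 ± 0.56 (SE, edgeR adjusted p = 0.000809), on counts of at most 34 per library.

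LOC_Os03g03510, a kinase with the domains of the SnRK3 and CBL-interacting families, stood at 73.5, 22.1, 42.9 and 65.6 CPM in drought libraries and at 48.1, 59.6, 56.5 and 86.7 CPM in control libraries. Drought library 2 was the lowest of the 8, and the groups overlapped. The log2 fold change of −0.30 ± 0.33 did not pass the test (SE, edgeR adjusted p = 0.497), and with library size as the only scaling it was 0.08.

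The 3 class III peroxidases were all read at low counts and did not share a pattern over libraries. LOC_Os07g48020 had 1, 8, 15 and 39 counts in drought libraries and 1, 3, 2 and 1 counts in control libraries. Drought library 1 was as low as the controls, and drought library 4 held most of the counts. The log2 fold change of 2.84 ± 0.86 passed the test (SE, edgeR adjusted p = 0.0141). Without drought library 4 it was 1.81, with an adjusted p of 0.103, and the call was lost. It was also lost with limma-voom, at 1.87 with an adjusted p of 0.103, with glmTreat (adjusted p = 0.0767), and with a replicate block by the description number of the samples, at 2.30 with an edgeR adjusted p of 0.0905. The count filter filterByExpr removed the locus, so there was no value under it.

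LOC_Os03g13200 had 12, 11, 6 and 4 counts in drought libraries and 1, 1, 1 and 6 counts in control libraries. Control library 4 overlapped the drought range. The log2 fold change of 1.53 ± 0.75 did not pass (SE, edgeR adjusted p = 0.114). Without control library 4 it was 2.70 with an adjusted p of 0.0168, and limma-voom gave 1.64 with an adjusted p of 0.0413, both of which passed. With library size alone it also passed, at 1.90 (edgeR adjusted p = 0.0437). LOC_Os07g01370 had 30, 18, 50 and 21 counts in drought libraries and 21, 12, 24 and 15 counts in control libraries. The ranges overlapped, and the log2 fold change of 0.42 ± 0.38 did not pass (SE, edgeR adjusted p = 0.399).

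**Figure D3:**
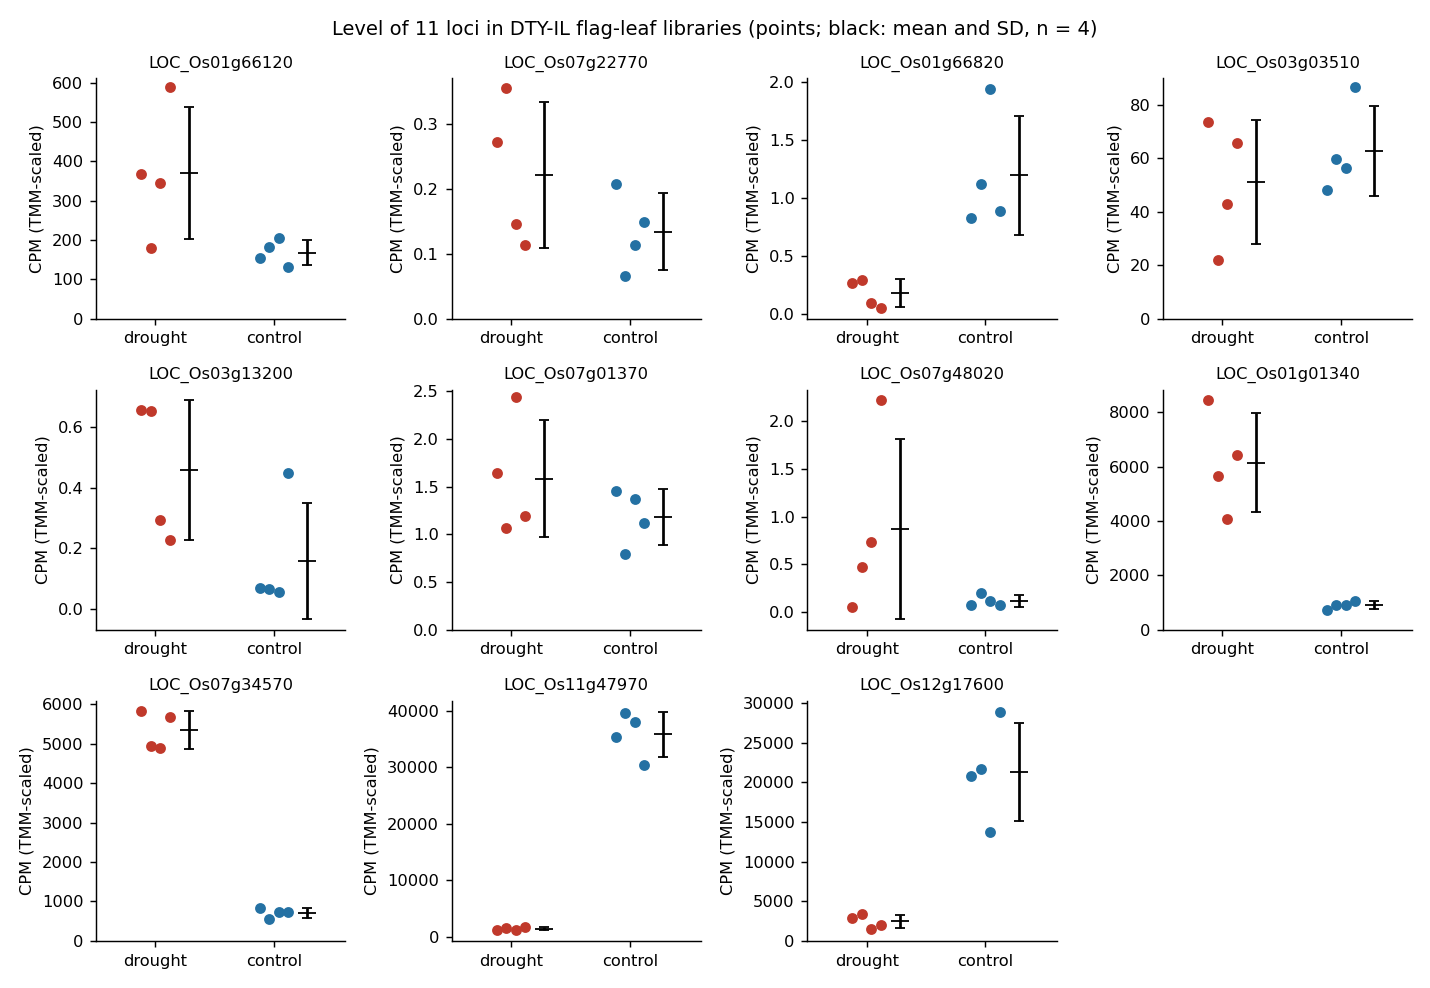
TMM-scaled CPM (y axis, linear, separate scale per panel) of 11 loci in DTY-IL drought and DTY-IL control libraries (x axis). Points are single libraries, and the black bar gives the mean and SD of 4 libraries. The groups are apart for the last 4 panels and for LOC_Os01g66820, and they overlap for the other 6 loci.

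Some loci were read almost only under a single treatment. At most 3 counts in every control library and at least 10 in every drought library were found for 141 loci, all of them among the loci that rose. Their median level under drought was 3.05 CPM and the highest 94.8 CPM. The opposite pattern was found for 54 loci, with a median of 1.70 CPM and a maximum of 20.8 CPM under control, all of them among the loci that fell. Both sets were chosen on the libraries that make the call, so that their being called largely follows from the choice. With 0 counts required in every library of the low group, 14 and 8 loci remained. In Swarna, 132 of the 141 loci also rose and 53 of the 54 also fell, against 15.2% and 17.3% of all tested loci.

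Responding loci were found on every chromosome. By the chromosome number in the identifier, the share of tested loci that rose was between 8.83% on chromosome 12 and 13.5% on chromosome 5. The share that fell was between 10.1% on chromosome 10 and 12.7% on chromosome 12. Chromosome 12 had 147 loci that rose and 211 that fell, and chromosome 10 had 210 that rose and 159 that fell.

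**Figure D4:**
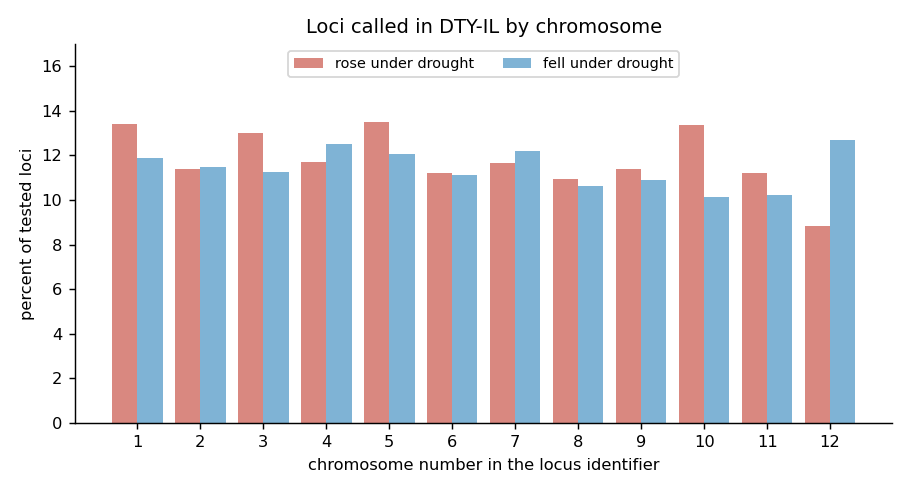
Percent of tested loci that rose or fell under drought in DTY-IL (y axis) by the chromosome number in the locus identifier (x axis). The shares lie between 8.83% and 13.5% for loci that rose and between 10.1% and 12.7% for loci that fell.

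Loci that changed the same way lay next to each other more often than the overall share. The next tested locus in identifier order also rose for 672 of the 3389 loci that rose (19.8%, against 12.0% of all tested loci). It also fell for 597 of 3251 loci that fell (18.4%, against 11.5%). Neighbours of opposite direction were below the overall share, with a falling neighbour for 294 loci that rose (8.68%) and a rising neighbour for 295 loci that fell (9.07%). Runs of at least 4 consecutive loci numbered 30 for loci that rose, with at most 5 loci in a run, and 25 for loci that fell, with at most 8. Neighbouring copies of a gene can share reads, and the part of shared reads in these runs was not tested.

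Drought libraries differed among themselves more than control libraries. Over 19017 loci with a mean of at least 1 CPM, the median SD of log2 CPM was 0.275 within the drought group and 0.228 within the control group. The SD was larger under drought at 11615 of these loci (61.1%). Drought library 2 was the most distant of its group at 35.0% of loci and drought library 4 at 13.4%. In the control group, control library 4 was the most distant at 42.8% of loci and control library 2 at 12.2%.

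Most of the DTY-IL response was also called in Swarna. The Swarna contrast compares other libraries than the DTY-IL contrast, but both were tested in the same fit. They thus share the estimate of spread at each locus and the count filter. Of the loci that rose in DTY-IL, 2529 also rose in Swarna, which is 74.6% of the DTY-IL list and 58.7% of the Swarna list. Of the loci that fell, 2635 also fell in Swarna, 81.0% of the DTY-IL list and 53.7% of the Swarna list. Over all tested loci, 15.2% rose and 17.3% fell in Swarna. The direction was opposite for 49 loci that rose in DTY-IL and for 9 that fell. A further 811 loci that rose and 608 that fell in DTY-IL were not called in Swarna, where 32.6% of tested loci were called in all.

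Most loci without a call in Swarna did not pass the test of a difference between the genotypes, which does not show an equal response. The 811 loci that rose in DTY-IL without a call in Swarna had a median log2 fold change of 1.73 in DTY-IL and 0.75 in Swarna. For the 608 that fell, the medians were −1.58 in DTY-IL and −0.76 in Swarna. The genotype by drought interaction, the test of the difference itself, was called at 4.91% of tested loci. It was called at 86 of the 811 loci that rose in DTY-IL without a call in Swarna (10.6%), and at 28 of the 608 that fell (4.61%). All 86 had a more positive change in DTY-IL than in Swarna, a direction called at 3.52% of all tested loci. All 28 had a more negative change, a direction called at 1.39%. Among all loci that rose in DTY-IL the interaction was called at 222 (6.55%), 147 of them more positive and 75 more negative in DTY-IL. Among all that fell it was called at 375 (11.5%). Of these 375, 334 had a more positive change in DTY-IL than in Swarna, a direction called at 3.52% of all tested loci, and 41 had a more negative change, called at 1.39%. The libraries that chose these loci also enter the interaction and the medians, so the shares and medians are a description.

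At the loci named above, the interaction was called for 3 of 11 in the edgeR test, against 4.91% of all tested loci. Of these 3, 2 had been chosen for their large change in the same DTY-IL libraries. The study had named LOC_Os07g48020 and LOC_Os03g13200 as raised in DTY-IL and lowered in Swarna under drought. In Swarna their log2 fold changes were −1.75 (edgeR adjusted p = 0.149) and −0.10 (edgeR adjusted p = 0.953), and neither was called. The interaction was not called at LOC_Os03g13200 (1.63, edgeR adjusted p = 0.574). All 3 loci with a called interaction were thus chosen with these data in view, and the share is a description. For LOC_Os07g48020 the difference between the genotypes was 4.59 ± 1.31 on the log2 scale (SE, adjusted p = 0.0452), on Swarna counts of 0, 2, 1 and 3 under drought and 5, 7, 2 and 1 under control. LOC_Os07g34570 rose less in DTY-IL than in Swarna, with log2 fold changes of 2.91 and 4.13 and a difference of −1.22 ± 0.28 (SE, edgeR adjusted p = 0.0165). That call was lost with the replicate block by description number (edgeR adjusted p = 0.0607) and with glmTreat (adjusted p = 0.955). LOC_Os11g47970 fell less in DTY-IL than in Swarna, with log2 fold changes of −4.63 and −5.82 and a difference of 1.19 ± 0.35 (SE, edgeR adjusted p = 0.0488). The interaction call at LOC_Os11g47970 was lost without any single DTY-IL library except drought library 3, with edgeR adjusted p between 0.0518 and 0.0953. It was also lost with library size alone (0.0755), without a minimum count (0.0828), with the replicate block by title number (0.0685) or description number (0.127), these 4 values being edgeR adjusted p, and with glmTreat. That at LOC_Os07g48020 was lost without any of the control libraries or drought library 3 or 4, with edgeR adjusted p between 0.0512 and 0.0941, and with limma-voom (adjusted p = 0.127) and glmTreat (adjusted p = 0.238).

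The DTY-IL libraries were also placed on a scale set by the loci called in Swarna. The fit that called these loci used all 16 libraries for its spread, scaling and count filter. For each library, the mean log2 CPM of loci that fell in Swarna was subtracted from that of loci that rose in Swarna, and the difference was used as a score. It was 0.94, 0.47, 0.94 and 1.13 in DTY-IL drought libraries 1 to 4, and −1.86, −1.90, −2.07 and −1.56 in DTY-IL control libraries 1 to 4. Drought library 2 was the lowest of its group and control library 4 the highest of its group, and the groups did not overlap. The mean was 0.87 ± 0.28 under drought and −1.85 ± 0.21 under control (SD, n = 4 each), a difference of 2.72. The Swarna libraries, on which the loci were chosen, gave a difference of 4.22, which is not comparable for that reason.

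**Figure D5:**
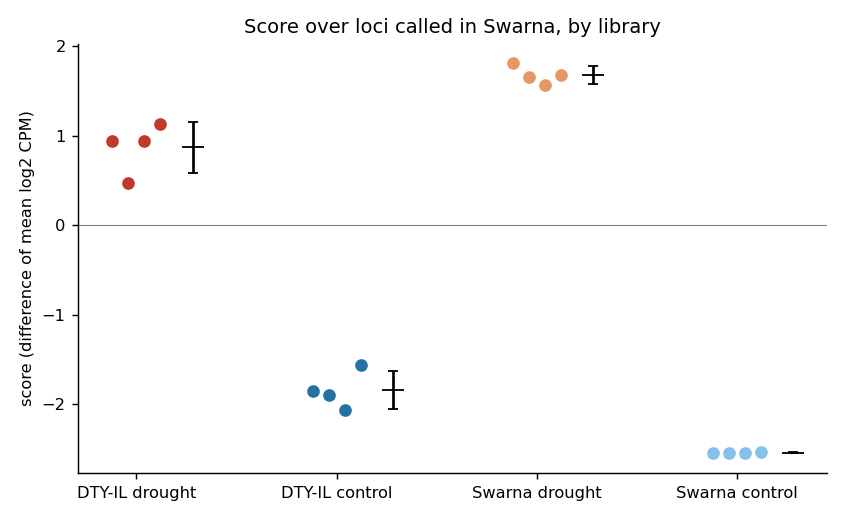
Score per library (y axis, mean log2 CPM of loci that rose in Swarna minus that of loci that fell in Swarna) for the 4 groups (x axis). Points are libraries and black bars give the mean and SD of 4. DTY-IL drought libraries lie between 0.47 and 1.13 and DTY-IL control libraries between −2.07 and −1.56.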

How the data were processed

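The authors trimmed the reads with Trimmomatic and quantified them with Salmon 0.7.2 against transcripts of the japonica genome IRGSP-1.0 with the RGAP 7 annotation, correcting for sequence and GC bias. They aggregated the estimates to loci. The deposited table holds these expected counts (estimated counts) in whole numbers, without normalization. Reads of an indica background with N22 fragments were thus assigned to japonica transcripts. The authors also deposited 4 contrast tables from DESeq2 1.14.1 with log2 fold changes, p-values and adjusted p-values, which were not used.

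Loci with at least 10 counts in total were fitted in edgeR 4.0.16 (R 4.3.3) by quasi-likelihood in a model of 4 groups with 16 libraries and TMM scaling. The call thresholds were 0.05 for the p after Benjamini-Hochberg adjustment and 1 for the log2 fold change in either direction. Tests were two-sided, and a prior count of 2 entered log2 CPM. Alternatives were other scalings and count filters, adjusted p alone, glmTreat, DESeq2 1.42.0, limma-voom (limma 3.58.1), the DTY-IL libraries alone, replicate blocks and removal of each DTY-IL library. The named loci were the 8 whose function the main text of the study gives, plus the called loci with the largest gain (2) and loss (2) in mean CPM without overlap between treatments. Members and lists were chosen with earlier results of these data known. On simulated data of 28283 loci for this contrast, 90 of 100 changed loci at a log2 fold change of 1.5 and 98 of 100 at 2 were recovered, with 11 false calls. The changed loci were drawn only from loci with higher mean counts, as many raised as lowered, and all other loci were left unchanged. Recovery at low counts, or with as many changed loci as were called in the data, was thus not measured.

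The labels give 4 independent biological replicates per group. Squared differences between DTY-IL libraries of a group were at least 12.4 times counting error, so none of these was a copy of another. Separate libraries from the same plant would not be told apart in this way, and Swarna libraries were not compared. The pots stood in a randomized block design, and the labels do not say whether either number given to a sample marks its block. The labels used here give no batch or date.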

Additional observations from a re-analysis of the deposited data

Results flagged for a closer look

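In all, 36 sets of 4 DTY-IL libraries were examined, 24 for the 12 named loci and 12 for measures of whole libraries. In 2 sets a library was far from the other 3 by Dixon's criterion. Chance gives this in about 1 of 20 sets of continuous values. That rate does not hold for low, tied counts, as in both of these sets, and a single count beside 0 counts always meets the criterion. Swarna libraries were not examined in this way. LOC_Os01g67030 was at 0.0546 CPM in DTY-IL drought library 1, the value of its single count, and at 0 in the other 3 drought libraries. The peroxidase LOC_Os03g13200 was at 0.447 CPM in DTY-IL control library 4, from 6 counts, against 1 count in each of the other 3 control libraries.

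The response differed between DTY-IL and Swarna by the interaction test at 3 of the 11 named loci that were tested, against 4.91% of all tested loci, with log2 differences of 4.59 for LOC_Os07g48020, −1.22 for LOC_Os07g34570 and 1.19 for LOC_Os11g47970. The last 2 loci were chosen for their large change in the same DTY-IL libraries. The study named LOC_Os07g48020 and LOC_Os03g13200 as changing in opposite directions in DTY-IL and Swarna, so LOC_Os07g48020 was also chosen on these data. A fall in Swarna was called at neither of them (edgeR adjusted p = 0.149 and 0.953). Over alternatives, the adjusted p of the interaction was between 0.0160 and 0.238 for LOC_Os07g48020, between 0.000119 and 0.955 for LOC_Os07g34570 and between 0.000145 and 1 for LOC_Os11g47970. The highest values came from glmTreat, which tests against a difference of 2-fold.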

How the results depend on the processing

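The total of 6641 called loci was between 5796 (filterByExpr) and 7953 (library size alone) under the other scalings and filters, DESeq2 (6350), limma-voom (6678) and the DTY-IL libraries alone (6215). It was 3406 with glmTreat (1730 rose and 1676 fell) and 11412 with the adjusted p alone (5993 rose and 5419 fell). With each DTY-IL library left out, the total was between 6125 and 6989. The share of calls that rose, 51.0%, crossed 50% with RLE size factors (49.5%), with the DTY-IL libraries alone (49.1%), with limma-voom (49.6%) and between 49.3% and 52.7% with single libraries left out, so neither direction led. Library size alone gave 5801 that rose, 2152 that fell and 72.9% that rose. Whether the replicate numbers pair the samples was not given. The pots stood in a randomized block design, but neither number is said to mark the block. Deviations of same-numbered libraries correlated between −0.02 and 0.04 by the title number, and −0.01 and −0.19 for the 2 pairs that shared a description number. The replicate block gave 6488 calls by title number and 5965 by description number, under which the calls of LOC_Os07g48020 for drought (adjusted p = 0.0905) and of LOC_Os07g34570 and LOC_Os11g47970 for the interaction (0.0607 and 0.127) were lost. Description number 4 occurs only in DTY-IL drought library 2, so this library adds nothing to the contrast in that fit. Within DTY-IL only the 2 pairs above have both treatments under a number. The part of this loss of data in the lost calls was not tested. Loci read in a single treatment numbered 14 (drought) and 8 (control) with 0 counts in the low group, and the score difference was 3.12 with a prior count of 0.5. Among the named loci, 184 drought values kept their direction and call under alternatives, 6 lost the call, 3 gained it and 2 reversed, LOC_Os07g22770 (−0.11 with the replicate block by description number) and LOC_Os03g03510 (0.084 with library size alone). Of the interaction values, 154 kept direction and call, 22 lost it, 1 gained it and 6 reversed. The 6 were LOC_Os01g66120 (0.12 with the description block, and −0.40 to 0.14 with single libraries left out, above 0 without control library 3 or drought library 2) and LOC_Os03g03510 (0.038 with the description block, and −0.38 to 0.10 with single libraries left out, above 0 without control library 4 or drought library 2). The causes were not tested. Counts of at most 50 per DTY-IL library limit the values of LOC_Os07g22770, LOC_Os01g66820 and the 3 peroxidases. LOC_Os07g22770, LOC_Os03g13200 and LOC_Os07g48020 were removed by filterByExpr and have no value under it in these tallies.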
